A study of Mus musculus with 4 samples.

Results

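The nuclear tRNA entries described here are those of every amino acid other than glutamate, glycine, valine, aspartate, histidine and lysine. They were chosen by the isotype in the entry's name, with earlier results of these data known. They made up 58 of the 170 tRNA entries listed in the series, and covered 11 isotypes and 23 anticodons: alanine (Ala), arginine (Arg), asparagine (Asn), cysteine (Cys), glutamine (Gln), leucine (Leu), proline (Pro), selenocysteine (SeC), serine (Ser), threonine (Thr) and the initiator methionine tRNA (iMet). The RNA came from small extracellular vesicles, membrane particles that cells shed into body fluids, harvested from the blood plasma of wild-type mice on a normal diet. The sham group (2 libraries) was sampled 12 h after sham surgery, and the MI group (2 libraries) 12 h after surgery that caused a myocardial infarction, in which heart muscle dies for lack of blood. The sources used here do not give strain, sex, age or the number of animals behind a library. A p-value therefore reflects the spread among the 4 libraries alone, and that spread may be technical.

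Transfer RNAs carry amino acids to the ribosome and read the codons of messenger RNA through a 3-base anticodon. Each amino acid has its own tRNA isotype, an isotype can have several anticodons, and most anticodons are encoded by several gene copies. Nucleases such as angiogenin cut tRNAs into fragments, which are abundant in blood and in vesicles, and a small RNA library captures such fragments and not the whole molecule. In the naming of tRNA genes, the number after the anticodon marks a distinct mature sequence and the last number marks a gene copy of it. Leu-AAG-1-1, Leu-AAG-1-2 and Leu-AAG-1-3 are thus copies of the same mature tRNA, and the split of counts among such copies is uncertain.

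Each captured molecule was counted by its unique molecular identifier (UMI), a random tag added before amplification. The libraries held 301642 to 971133 tRNA UMIs, of which 97.8 to 98.7% belonged to the glycine and glutamate tRNAs. The isotypes described here held 2858 UMIs in sham replicate 1, 1763 in sham replicate 2, 1788 in MI replicate 1 and 1193 in MI replicate 2. An entry was listed only from 10 UMIs on, so an unlisted entry had between 0 and 9 UMIs. Levels are given as counts per 1000000 (CPM), the UMIs of a tRNA over 1000000 tRNA UMIs of its library. The listing limit lay at 9.27 CPM in sham replicate 1 and at 18.5 to 29.8 in the other 3 libraries. Sham replicate 1, the deepest library, listed 45 of the 58 entries, sham replicate 2 listed 31, MI replicate 1 listed 27 and MI replicate 2 listed 26. Only 18 entries were listed in all 4 libraries, and 27 were listed in a single library, 17 of them in sham replicate 1. Counted from a common level of 33.2 up, that of 10 UMIs in the shallowest library, the order was different. The sham libraries had 9 and 18 entries at or above it and the MI libraries 16 and 26. That level is the listing count of MI replicate 2, so all entries listed there reached it by construction. At the same level the other tRNA entries numbered 90 and 91 in sham and 86 and 91 in MI libraries.

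Alanine tRNA was the most abundant of these isotypes in every library and leucine tRNA the next. Alanine tRNA stood at 1725 and 2339 CPM in the sham libraries and at 2331 and 2274 in the MI libraries, and held 57.5 to 63.5% of the UMIs of the 11 isotypes. Leucine tRNA stood at 555 and 679 in sham and at 784 and 879 in MI libraries. The next place changed from library to library. It was held by proline tRNA in sham replicate 1 (201), by initiator methionine tRNA in sham replicate 2 (357) and in MI replicate 1 (250.3), and by serine tRNA in MI replicate 2 (292). Threonine, asparagine, glutamine, selenocysteine, arginine and cysteine tRNA stayed below 100 CPM in every library. Among them, threonine tRNA lay above selenocysteine tRNA in each library, at 34.9 to 61.6 against 21.2 to 33.2, and the levels of the other 4, unlisted in 1 to 3 libraries, overlapped with these.

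**Figure D1:**
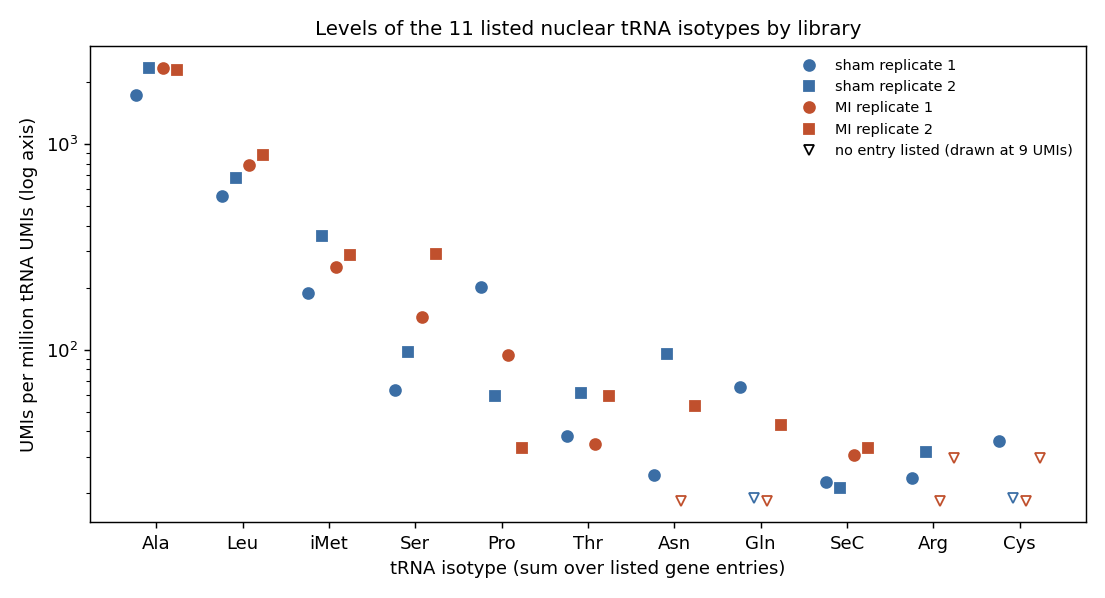
Level of each of the 11 isotypes, summed over its listed gene entries, in CPM (log axis), with a point for each of the 4 libraries (sham blue, MI red; circles replicate 1, squares replicate 2) and open triangles at 9 UMIs where no entry of the isotype was listed. Alanine and leucine tRNA lie above the other isotypes in all 4 libraries, and for serine tRNA both MI points (144 and 292) lie above both sham points (63.8 and 97.7).

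Alanine tRNA was made up almost wholly of a pair of entries that the 2 ways of counting ranked in opposite order. The entry Ala-CGC-5-1 had 1103 and 666 UMIs in the sham libraries and 814 and 382 in the MI libraries. The entry Ala-TGC-2-1, of another alanine anticodon, had 530 and 380 UMIs in sham and 312 and 282 in MI libraries. By UMIs, Ala-CGC-5-1 was 1.35 to 2.61 times as high as Ala-TGC-2-1 in every library. By reads it was lower in every library, at 0.190 to 0.376 of the reads of Ala-TGC-2-1. Each UMI of Ala-CGC-5-1 was read 1.33 to 1.62 times, and each UMI of Ala-TGC-2-1 10.7 to 13.0 times. Pooled over libraries, the median entry among the 58 had 10.7 reads per UMI, and 2 of them lay below 3 reads per UMI, Ala-CGC-5-1 at 1.52 and Pro-AGG-1-5, with 10 UMIs in 1 library, at 1.20. Among the 112 other tRNA entries 29 lay below 3. Which entry leads the alanine tRNAs thus depends on whether molecules or reads are counted. The cause of the low number of reads per UMI was not tested.

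**Figure D2:**
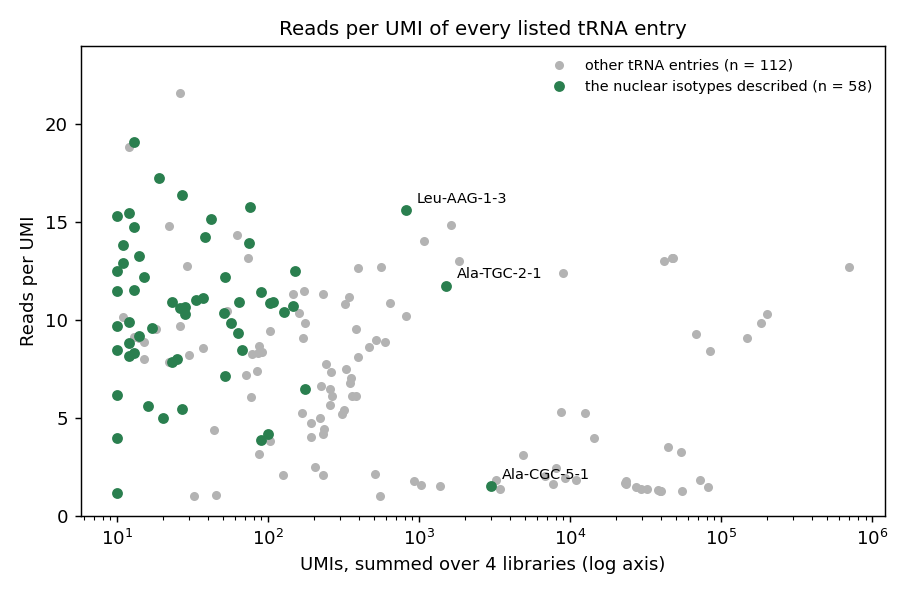
Reads per UMI against UMIs (log axis), both summed over the 4 libraries, for each of the 170 listed tRNA entries, with the 58 entries of the isotypes described in green and the other 112 in grey. Ala-CGC-5-1, at 1.52 reads per UMI, lies far below Ala-TGC-2-1 and Leu-AAG-1-3, the next most abundant green points.

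After infarction the alanine anticodons did not move beyond the spread of the libraries. Summed over its entries, the anticodon Ala-CGC stood at 1323 ± 248 in sham and 1479 ± 300 in MI libraries (mean ± SD, n = 2 each, as for all such values below), and Ala-TGC at 693 ± 209 and 807 ± 237. The edgeR log2 fold changes (MI over sham, scaled by TMM factors) were -0.17 (SE 0.32) for Ala-CGC and -0.04 (SE 0.46) for Ala-TGC, both with an adjusted p of 0.990 and both turned positive when the tRNA library size alone set the scale (0.16 and 0.22). For alanine tRNA as a whole the log2 fold change was -0.11 (SE 0.23, edgeR adjusted p = 0.889). Ala-AGC, whose wobble base is made into inosine in the mature tRNA, was listed in sham replicate 1 with 30 UMIs and in MI replicate 2 with 10 UMIs. No library gave it more than 33.2 CPM.

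Among the leucine tRNAs, which carry a long variable arm, the anticodon AAG held 67.5 to 74.2% of the UMIs. Leu-AAG stood at 412 and 476 in the sham libraries and at 529 and 623 in the MI libraries. Most of it was counted on the gene copy Leu-AAG-1-3, with 328 and 165 UMIs in sham and 185 and 138 in MI libraries, while Leu-AAG-1-1 had 16 to 29 UMIs and Leu-AAG-1-2 had 11 to 33. The mature sequence is the same for these 3 copies by their names, but the reads per UMI were not. They were 12.8 to 18.1 for Leu-AAG-1-3, 1.68 to 8.19 for Leu-AAG-1-1 and 1.27 to 8.26 for Leu-AAG-1-2.

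The other leucine anticodons were lower. Leu-TAG stood at 80.3 and 99.8 in sham and at 101 and 169 in MI libraries. Leu-CAA stood at 50.5 and 78.5 in sham and at 69.8 and 49.7 in MI libraries, so its groups overlapped. Leu-CAG had 12 UMIs in each sham library and 41 and 11 in the MI libraries, which is 12.4 and 25.5 against 84.1 and 36.5 CPM. None of the 4 leucine anticodons passed the test. The edgeR log2 fold changes were 0.08 (SE 0.44) for Leu-AAG, 0.31 (SE 0.54) for Leu-TAG, -0.43 (SE 0.68) for Leu-CAA and 1.32 (SE 1.32) for Leu-CAG, each with an adjusted p of 0.990. Leucine tRNA as a whole, with both MI levels above both sham levels, gave 0.14 on the log2 scale (SE 0.36, edgeR adjusted p = 0.889). For the anticodon AAG and for leucine as a whole the sign of the fold change turned under some alternatives.

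The initiator methionine tRNA, which starts every protein chain in the cytosol, was spread over 8 listed entries, 7 of them copies of the same mature sequence. It had 182 and 168 UMIs in the sham libraries and 122 and 87 in the MI libraries. This is 187 and 357 CPM in sham and 250.3 and 288 in MI libraries, so both MI levels lay between the sham levels. The mean was 272 ± 120 in the sham group and 269 ± 26.9 in the MI group, and the fitted difference of -0.29 on the log2 scale (SE 0.49) did not pass (edgeR adjusted p = 0.990). Among the copies, iMet-CAT-1-4 was highest in sham replicate 1 and in MI replicate 1 with 66 and 36 UMIs, iMet-CAT-1-7 in sham replicate 2 with 60 UMIs, and iMet-CAT-1-6 in MI replicate 2 with 29 UMIs. No elongator methionine tRNA, which serves the inner methionine codons, was listed in any library.

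Serine tRNA gave the single entry of these isotypes that passed the test. Ser-AGA-1-1, a serine tRNA whose wobble adenosine is made into inosine, had 24 and 16 UMIs in the sham libraries and 44 in each MI library. These counts are 24.7 CPM (95% exact binomial interval 15.8 to 36.8) in sham replicate 1 and 34.0 (19.4 to 55.2) in sham replicate 2. They are 90.3 (65.6 to 121) in MI replicate 1 and 146 (106 to 196) in MI replicate 2. Both MI libraries lay above both sham libraries, and neither interval of the MI group met one of the sham group. Intervals here cover counting error only. The mean rose 4.02-fold, from 29.3 ± 6.54 to 118 ± 39.3 CPM, with a TMM-scaled log2 fold change of 1.83 (SE 0.55, edgeR adjusted p = 0.0162). More vesicles from a kind of cell and more copies of the RNA in each vesicle cannot be told apart in such libraries.

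Of the 26 entries of these isotypes that could be tested, Ser-AGA-1-1 rose and none fell. Over all 123 tRNA entries tested, 10.6% were higher and 2.44% lower at the same threshold, so 1 call in 26 is no more than the share among tRNA entries at large. At an unadjusted p under 0.05 the count was again 1 higher and 0 lower, where 17.9% of all entries were higher and 6.5% lower. The call did not survive every treatment of the data. The adjusted p was 0.0722 without sham replicate 1, 0.145 without sham replicate 2, 0.319 without MI replicate 2 and 0.00550 without MI replicate 1, while the log2 fold change stayed between 1.48 and 2.17. It was also not past the threshold with read counts (0.277), with the library size over all RNA classes (0.0642), with the DESeq2 Wald test (0.571) and with no low-count filter (0.0611). Reads numbered 288 and 158 in sham and 431 and 456 in MI libraries. Over 1000000 tRNA reads these are 31.9 and 42.5 in sham and 115 and 186 in MI libraries.

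The same Ser-AGA-1-1 counts can be set against other tRNAs of their library, with references chosen after the values were seen. This describes the counts in another way and is no further evidence. For each UMI of Ala-TGC-2-1 there were 0.0453 and 0.0421 UMIs of Ser-AGA-1-1 in the sham libraries and 0.141 and 0.156 in the MI libraries. Of the UMIs of all 11 isotypes, it held 0.840% (95% exact binomial interval 0.539 to 1.25) and 0.908% (0.520 to 1.47) in sham, and 2.46% (1.79 to 3.29) and 3.69% (2.69 to 4.92) in MI libraries.

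**Figure D3:**
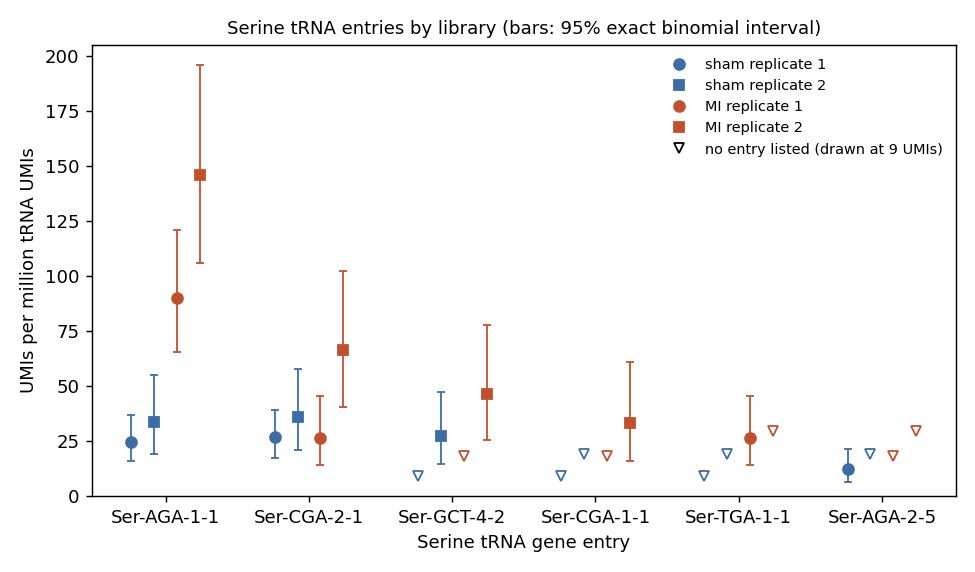
Level of each serine tRNA entry in CPM, with a point per library (sham blue, MI red; circles replicate 1, squares replicate 2), bars for the 95% exact binomial interval, and open triangles at 9 UMIs where the entry was not listed. Ser-AGA-1-1 lies at 24.7 and 34.0 in sham and at 90.3 and 146 in MI libraries, while the points of Ser-CGA-2-1 overlap between the groups.

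The other serine tRNAs did not show the same separation. Ser-CGA-2-1 had 26 and 17 UMIs in sham and 13 and 20 in MI libraries, which is 26.8 and 36.1 against 26.7 and 66.3 CPM. Ser-GCT-4-2 was listed in the second replicate of each group, with 13 UMIs in sham and 14 in MI. A single library listed each of the rest, MI replicate 2 for Ser-CGA-1-1 (10 UMIs), MI replicate 1 for Ser-TGA-1-1 (13 UMIs) and sham replicate 1 for Ser-AGA-2-5 (12 UMIs). Because serine tRNAs of the anticodons AGA, CGA and TGA resemble each other closely, the split of counts among their entries is uncertain. Summed by anticodon, Ser-AGA stood at 35.5 ± 2.19 in sham and 118 ± 39.3 in MI libraries and did not pass, with a log2 fold change of 1.44 (SE 0.65, edgeR adjusted p = 0.377). Without MI replicate 2 that value was 0.81. Ser-CGA had one of 0.78 (SE 1.04, adjusted p = 0.990), which turned to -0.73 without MI replicate 2. Serine tRNA as a whole stood at 63.8 and 97.7 in sham and at 144 and 292 in MI libraries, 2.70-fold higher in the mean. The fitted difference was 1.21 on the log2 scale (SE 0.72) and did not pass (edgeR adjusted p = 0.585), and it was 0.33 without MI replicate 2 and 0.61 without sham replicate 1. The MI libraries differed from each other here by more than the sham libraries did.

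The proline tRNAs were led by a different anticodon in different libraries. Proline tRNA had 195 UMIs in sham replicate 1, 28 in sham replicate 2, 46 in MI replicate 1 and 10 in MI replicate 2. Of the 10 listed entries, Pro-CGG-1-3 was in all 4 libraries, with 50 and 18 UMIs in sham and 12 and 10 in MI libraries. As levels these are 51.5 and 38.2 against 24.6 and 33.2 CPM, both MI libraries below both sham libraries. The anticodon Pro-CGG did not pass, with a log2 fold change of -0.96 (SE 1.18, edgeR adjusted p = 0.990). Pro-TGG was listed in sham replicate 1 alone, with 71 UMIs over 4 entries. Its highest entry, Pro-TGG-2-2, stood at 28.8 CPM there, above the listing limit of sham replicate 2 and MI replicate 1 and below that of MI replicate 2. Pro-AGG, with an inosine wobble base, had 74 and 10 UMIs in sham, 34 in MI replicate 1 and no listed entry in MI replicate 2. Summed over its anticodons, proline tRNA changed by -1.50 on the log2 scale (SE 0.96, edgeR adjusted p = 0.585) and did not pass. Leaving out sham replicate 1 gave -0.34, leaving out MI replicate 1 gave -2.21, and the value was 0.10 with unlisted entries set at 9 UMIs.

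Selenocysteine tRNA, which reads a recoded stop codon and serves the small set of selenoproteins, was listed in all 4 libraries as the entry SeC-TCA-1-1. It had 22 and 10 UMIs in sham and 15 and 10 in MI libraries, or 22.7 and 21.2 against 30.8 and 33.2 CPM. The fitted difference was 0.21 on the log2 scale (SE 1.99, edgeR adjusted p = 0.990), and it did not pass. Threonine tRNA was listed with the anticodon TGT alone, led by Thr-TGT-3-2 with 13 and 19 UMIs in sham and 17 and 18 in MI libraries. Its level of 49.8 ± 16.6 in sham and 47.3 ± 17.5 in MI libraries gave -0.33 on the log2 scale (SE 0.90, edgeR adjusted p = 0.990).

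The 4 remaining isotypes were each unlisted in at least 1 library. Asparagine tRNA, whose wobble base is modified to queuosine, had 24 and 45 UMIs in sham, no listed entry in MI replicate 1 and 16 UMIs in MI replicate 2, most of them on Asn-GTT-3-2. Glutamine tRNA had 64 UMIs in sham replicate 1, of which 51 were of the anticodon CTG, led by Gln-CTG-7-1 with 29, and 13 of the anticodon TTG. In MI replicate 2 it had 13 UMIs, all of Gln-CTG-7-1. Cysteine tRNA was listed in sham replicate 1 alone, with 19 UMIs of Cys-GCA-5-1 and 16 of Cys-GCA-3-1. Arginine tRNA was listed in both sham libraries and in neither MI library, but through different entries, Arg-CCG-3-1 and Arg-TCT-1-1 with 13 and 10 UMIs in replicate 1 and Arg-TCT-2-1 with 15 UMIs in replicate 2. No fold is given for these isotypes, since an unlisted entry may hold any number of UMIs from 0 to 9.

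Among the entries of these isotypes, 2 were listed in both sham libraries and in neither MI library, and none the other way round. Pro-AGG-1-1 had 23 and 10 UMIs in sham, and Thr-TGT-3-1 had 13 and 10. As levels, Pro-AGG-1-1 stood at 23.7 and 21.2 CPM in sham, above the listing limit of MI replicate 1 (18.5) and below that of MI replicate 2 (29.8). Thr-TGT-3-1 stood at 13.4 and 21.2 CPM, on either side of the limit of MI replicate 1 and below that of MI replicate 2. With 10 to 23 UMIs and 1 of the MI libraries too shallow to list such levels, no fold is given. Entries of other isotypes showed the same pattern, such as those of Glu-CTC-6 (19 and 13 UMIs in sham) and Lys-TTT-2 (23 and 14). The share over all tRNA entries was not counted, so the pattern is not read as a trait of these isotypes.

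Isoleucine, phenylalanine, tryptophan and tyrosine tRNAs were listed in no library, nor were several anticodons of listed isotypes. In all, 12 anticodons of these isotypes that RefSeq (GRCm38.p6) names were unlisted, among them Arg-ACG, Thr-AGT, Leu-TAA, Ile-AAT, Phe-GAA, Trp-CCA and Tyr-GTA, with 74 annotated genes. Met-CAT, with 16 genes, was counted as listed through the initiator, so the unlisted elongator methionine tRNA is not in these numbers. The reads that the read class table assigns to tRNA but that no listed entry holds numbered 3824 and 4779 in the sham libraries and 4059 and 3554 in the MI libraries. These reads were 0.0424 to 0.145% of all tRNA reads, and 15.9 to 37.5% of the reads of the isotypes described here. All unlisted tRNAs together were thus held within that number of reads. A higher number of annotated genes did not always go with a higher level, and the relation over all anticodons was not tested. RefSeq names 56 Cys-GCA genes, more than for any other anticodon, and 5 Leu-AAG genes, while Cys-GCA had 35 UMIs and Leu-AAG 400 in sham replicate 1.

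Across the anticodons, no member of these isotypes passed the test after infarction. Of the 23 listed anticodons 17 could be tested, and edgeR's quasi-likelihood test called 0 at an adjusted p under 0.05. At an unadjusted p under 0.05 the count was also 0 in each direction, where 6.06% of all anticodons tested were higher and 6.06% lower. Over all 33 tRNA anticodons tested, edgeR called 3.03%, all of it higher in MI. DESeq2 called 0 of the 17, and over all 33 it called 1 higher and 0 lower. Summed by amino acid, edgeR called 0 of the 10 tested isotypes, against 0.0% of all 21 tRNA isotypes tested. DESeq2 called 0 of the 10, and over all 21 it called 2 higher and 2 lower. At an unadjusted p under 0.05, 0 were higher and 1 was lower, arginine tRNA, whose MI counts are unlisted, where 9.52% of the tRNA isotypes tested were higher and 9.52% lower. In libraries of this number and depth a miss does not show that an anticodon stayed the same.

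**Figure D4:**
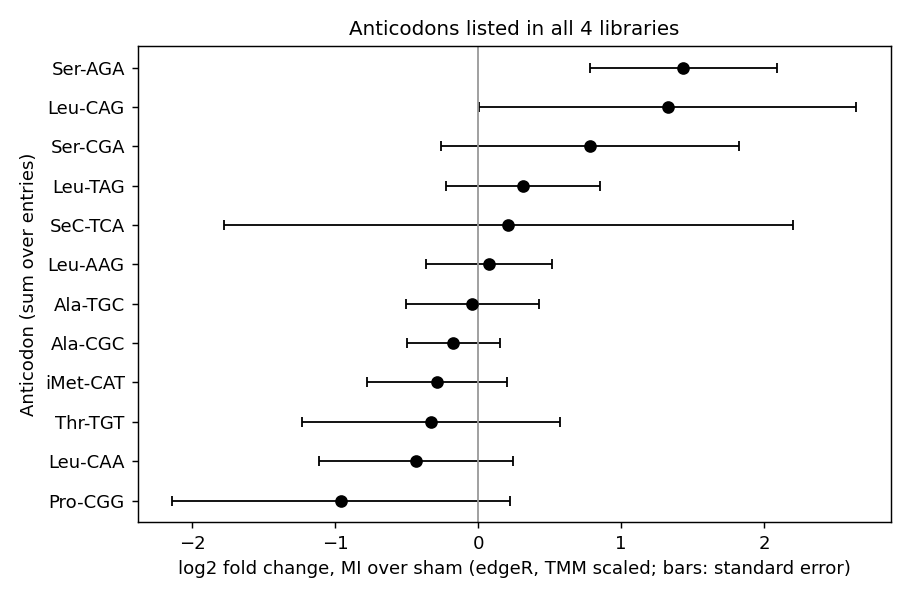
edgeR log2 fold change (MI over sham, TMM scaled) with its standard error for the 12 anticodons of these isotypes listed in all 4 libraries (n = 2 libraries per group). The values run from -0.96 for Pro-CGG to 1.44 for Ser-AGA, and none passed the adjusted threshold.

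Of the 12 anticodons listed in all 4 libraries, 6 had a log2 fold change above 0 and 6 below, with a median of 0.02, against 0.01 over all 25 tRNA anticodons listed in all 4. Without MI replicate 2 the split was 2 above and 10 below, and without sham replicate 2 it was 9 and 3. By level, 5 of the 12 had both MI libraries above both sham libraries (Leu-AAG, Leu-CAG, Leu-TAG, SeC-TCA and Ser-AGA), where 44.0% of the 25 did. Only Pro-CGG had both MI libraries below both sham libraries, where 16.0% of the 25 did. By amino acid, leucine, selenocysteine and serine tRNA had both MI libraries above both sham libraries, 3 of 7, against 50.0% of all 16 tRNA isotypes listed in all 4 libraries. None of the 7 had both MI libraries below both sham libraries, against 18.8% of the 16. None of these shares exceeded that of tRNA at large.

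The tRNAs with a long variable arm (leucine, serine and selenocysteine) had 7 anticodons listed in all 4 libraries, of which 6 lay above 0 and 1 below, with a median log2 fold change of 0.31. None of them passed the test. This count changed most without MI replicate 2, where 2 lay above 0 and 5 below (median -0.26). The split was 4 and 3 without sham replicate 1 (median 0.10) and with read counts (median 0.16). It was 5 and 2 with no low-count filter, with at least 10 counts in every library of 1 group, with unlisted entries at 9 UMIs and with entries listed in all 4 libraries alone. The summed level of these tRNAs was 642 and 798 in sham and 958 and 1203 in MI libraries. The isotypes charged by class I synthetases had 5 such anticodons, 3 above 0 and 2 below, with a median of 0.08. Over all 6 tested class I anticodons the median was -0.10. The isotypes charged by class II synthetases had 6 anticodons listed in all 4 libraries, 2 above 0 and 4 below, with a median of -0.11. Over all 10 tested class II anticodons the median was -0.22. Selenocysteine tRNA was left out of both class lists. Of the anticodons with an inosine wobble base, Leu-AAG and Ser-AGA were listed in all 4 libraries, with a median of 0.76, and Ala-AGC and Pro-AGG in fewer. Over all 4 of these the median was -0.10. The class I median was -0.35 without MI replicate 2, -0.22 without sham replicate 1 and -0.21 with read counts. It was -0.046 with no low-count filter, -0.044 with at least 10 counts in every library of 1 group, -0.13 with unlisted entries at 9 UMIs and -0.013 with entries listed in all 4 libraries alone. The class II median was 0.13 without sham replicate 2, 0.097 without MI replicate 1, 0.19 with the tRNA library size alone and 0.083 with entries listed in all 4 libraries alone. Of the anticodons with queuosine, Asn-GTT was listed in 3 libraries and Tyr-GTA in none.

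As a whole, the 11 isotypes held 0.294% of tRNA UMIs in sham replicate 1 (95% exact binomial interval 0.284 to 0.305) and 0.374% (0.357 to 0.392) in sham replicate 2. They held 0.367% (0.350 to 0.384) in MI replicate 1 and 0.396% (0.373 to 0.419) in MI replicate 2. The groups overlapped, at 0.334 ± 0.0565% in sham and 0.381 ± 0.0203% in MI libraries (exact permutation test, two-sided, p = 0.667, where 0.333 is the smallest p that 2 against 2 libraries allow). The difference of 0.0469 percentage points fell to 0.00692 without sham replicate 1 and rose to 0.0869 without sham replicate 2. With glycine and glutamate tRNA left out of the total, a choice made after their share was seen, these isotypes held 23.3 and 25.6% of the rest in sham and 20.8 and 18.3% in MI libraries. That share was lower in both MI libraries than in both sham libraries (exact permutation p = 0.333). Of the other tRNAs in the total, aspartate, valine and mitochondrial tRNA were higher in both MI libraries, and histidine and lysine tRNA were lower. Aspartate tRNA stood at 4684 and 6012 CPM in sham and 6976 and 10105 in MI libraries, valine tRNA at 1577 and 1509 against 3461 and 3720, and mitochondrial tRNA at 701 and 599 against 1364 and 2055. Histidine tRNA stood at 1537 and 1652 against 1219 and 653, and lysine tRNA at 1166 and 1078 against 950 and 1071. The part of each in the lower share was not tested.

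Some markers of the cells whose RNA can reach plasma differed in level between the groups, and others overlapped. Of the 10 miRNAs on the marker list, 9 were listed in all 4 libraries and miR-208a-3p in the MI libraries alone. The 3 heart and skeletal muscle miRNAs together made 1271 to 1697 CPM of all miRNA UMIs in sham and 5398 to 6059 in MI libraries. The hepatocyte miRNA miR-122-5p made 34960 to 35194 and 11253 to 12022. The 3 red cell miRNAs made 34321 to 37251 and 44660 to 51503, with miR-144-3p among them overlapping between the groups. Most of this sum was miR-486a-5p, at 32790 to 35974 in sham and 42872 to 49233 in MI libraries. The red cell miRNA miR-451a made 997 to 1135 and 1360 to 2005. The 3 platelet and myeloid miRNAs together made 38018 to 44845 and 33070 to 38808, so their sums overlapped. Taken singly, miR-223-3p (12689 to 14063 against 8047 to 10751) and miR-142a-3p (13119 to 15357 against 11664 to 12126) were lower in both MI libraries. The third, miR-126a-3p, overlapped between the groups (12209 to 15426 against 13359 to 15931). The part of any of these cells in the rise of Ser-AGA-1-1 was not tested.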

How the data were processed

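Vesicle RNA, extracted with Trizol and chloroform, went into small RNA libraries of the QIAseq miRNA kit, per the labels' protocols. The deposited values are raw counts: for each tRNA entry a UMI count and a read count, per the file headers, and reads per RNA class. No normalization is recorded. Not given in the sources used here: aligner, tRNA reference, build. Entries below 10 UMIs were not in the tables and were entered as 0.

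UMIs were summed by anticodon and by amino acid and divided by all tRNA UMIs of the library. The smallest listing count, 10, limits precision, and 95% intervals are exact binomial. UMI counts of all tRNA, nuclear and mitochondrial, were tested with edgeR 4.0.16 (R 4.3.3, quasi-likelihood F-test, TMM, filterByExpr with minimum count 10 and minimum total 15, two-sided, Benjamini-Hochberg at 0.05), at the level of anticodon, amino acid and entry. Standard errors were derived from the F statistic and the fold change. The common dispersion of these data was 0.661 for anticodons, 0.409 for amino acids and 0.0896 for entries. The fit was also run on simulated counts with a dispersion of 0.05. That is lower than in these data, so the run does not show how the fit performs here.

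Alternatives were read counts, other scalings, DESeq2 1.42.0, other filters, a replicate block, leaving out each library, unlisted entries at 9 UMIs, and entries listed in all 4 libraries. All isotypes and anticodons were named with their levels, and of the entries those past the threshold, the most abundant of each isotype and those listed in 1 group alone; the remaining entries named complete an anticodon. The isotypes and lists were chosen with earlier results of these data known. RefSeq gene numbers are by symbol, with 402 of 430 tRNA genes matched to an anticodon, and no coordinates were used. Libraries of a group differed by more than counting noise over 12 anticodons (chi-square per degree of freedom 2.54 in sham and 8.24 in MI). Each was counted once, which does not show that they came from separate samples. Between a sham and an MI library the same value was 5.35 to 7.26. By this measure the MI libraries differed more from each other than from either sham library.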

Additional observations from a re-analysis of the deposited data

How the results depend on the processing

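The calls rest on few UMIs in 2 libraries a group, and entries below 10 UMIs are unknown. The counts that follow are of the isotypes described here, with their anticodons and entries, unless all tRNA is named. No isotype was called in any of 14 alternatives. The number of anticodons called was 0, except 1 with unlisted entries at 9 UMIs (Ser-AGA, higher, log2 fold change 1.15, edgeR adjusted p = 0.0337) and 0 to 1 when leaving out 1 library (Asn-GTT, lower, without MI replicate 2, where its MI count is unlisted). The number of entries called was 1, and 0 with read counts, with the library size over all RNA classes, with the DESeq2 Wald test and with no low-count filter, and 0 to 1 when leaving out 1 library. Without MI replicate 2 the called entry was Asn-GTT-3-2 and not Ser-AGA-1-1, which passed in 7 of its 14 alternatives. Over all tRNA, the alternatives that kept all 4 libraries called 0 to 2 isotypes higher and 0 to 2 lower, of 16 to 27 tested. They called 0 to 4 of 25 to 45 anticodons higher and 0 to 3 lower. Of 104 to 170 entries they called 2 to 22 higher and 0 to 10 lower. The difference in share turned to -0.0111 percentage points with all tabulated RNA classes in the total and to -4.92 with tRNA other than glycine and glutamate in the total, and ranged from 0.00692 to 0.0869 when leaving out 1 library.

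Several fold changes changed sign, most of them near 0 but also those of proline and Ser-CGA, and the cause was not tested. With the tRNA library size alone, which moved the median of all anticodons by 0.26, the log2 fold change was 0.16 for Ala-CGC, 0.22 for Ala-TGC and 0.18 for alanine. With read counts it was -0.21 for Leu-AAG, -0.092 for Ser-CGA and 0.072 for alanine. With no low-count filter it was -0.046 for Leu-AAG and -0.087 for leucine, and with at least 10 counts in every library of 1 group -0.044 and -0.086. With unlisted entries at 9 UMIs it was -0.13 for Leu-AAG, 0.23 for Thr-TGT, 0.023 for alanine and 0.10 for proline. With entries listed in all 4 libraries alone it was -0.013 for Leu-AAG and 0.59 for Thr-TGT. Leaving out 1 library, the log2 fold change ranged from -0.49 to 0.049 for Ala-CGC, -0.61 to 0.21 for Ala-TGC, -0.26 to 0.19 for Leu-AAG, -0.35 to 0.61 for Leu-TAG, -0.040 to 0.28 for SeC-TCA, -0.73 to 1.37 for Ser-CGA, -0.90 to 0.19 for iMet-CAT, -0.53 to 0.069 for alanine, -0.22 to 0.35 for leucine, 0.33 to 1.71 for serine and -2.21 to -0.34 for proline. Where 1 library was left alone in its group, it was assumed to vary like the other group.

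Replicate numbers are shared between the groups, and the file headers tag the second replicate of both groups with the word plus, whose meaning is not given. No label says that a number marks a shared animal, batch or day, and the deviations of same-numbered libraries had a correlation of -0.14 over 25 anticodons. With a replicate block 0 anticodons, 0 isotypes and 1 entry of those described here, Ser-AGA-1-1 (edgeR adjusted p = 0.0242), were called. Over all tRNA that fit called 0 of 33 anticodons and 0 of 21 isotypes. Of all 123 entries it called 17 higher and 3 lower.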
